A study of Homo sapiens with 3 samples.

Results

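The SOX genes of subgroups C, D and E encode transcription factors that bind DNA through a shared HMG box, and 9 of them were chosen by name for this account out of 62754 genes measured. The SOXC genes are SOX4, SOX11 and SOX12, the SOXD genes SOX5, SOX6 and SOX13, and the SOXE genes SOX8, SOX9 and SOX10. RNA was read in primitive neural progenitor cells, or pNPCs, which renew themselves in culture at an early neural stage. The samples form 1 wild-type group of 3 replicates, titled pNPC_WT, made from the established human embryonic stem cell line H1, so every value describes 1 line. The labels give a medium with N2, B27-RA, FGF2, the GSK3 inhibitor CHIR99021, leukemia inhibitory factor, the TGF-beta receptor inhibitor SB431542 and the ROCK inhibitor Y-27632, which all samples shared. No treated or mutant group was analysed here, so the comparisons are between genes and between replicates.

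SOXC factors are strong activators that in mouse and chick embryos turn on pan-neuronal genes as progenitors become neurons, and they also act in mesenchyme. SOXD factors carry a coiled coil through which they pair, lack a known activation domain, and depend on partner factors. SOXE factors specify the neural crest and glia. SOX9 acts early in crest, in radial glia and, with SOX5 and SOX6, in cartilage, while SOX10 is kept in crest cells and their glial and pigment descendants and in oligodendrocytes.

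The 3 libraries held 30038114 to 38400092 expected counts, which are estimated reads per gene. Replicate 1 stood apart, since the chi-square of counts, per degree of freedom, was 82.4 and 82.5 for the pairs with replicate 1 and 19.4 for replicates 2 and 3. In replicate 1 the TPM was the lowest of the 3 for 57.3% of detected protein-coding genes and the highest for 25.0%. TPM scales reads for the length of the transcript and for the depth of the library. A gene is called detected at a TPM of at least 1 in all 3 libraries. Replicate-to-replicate differences may be technical, since nothing in the labels says that replicates came from separate cultures. In bulk RNA, fewer cells of a type and less RNA per cell cannot be told apart.

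All 9 SOX genes were detected, 3 of 3 in each subgroup, against 23.0% of all genes and 62.2% of protein-coding genes. Their mean levels ran from 7.54 ± 2.86 TPM for SOX6 to 48.8 ± 9.13 TPM for SOX12 (SD, n = 3). The levels of SOX12, SOX9, SOX11, SOX13 and SOX4 lay close together at the top. SOX10 lay in the middle, and SOX5, SOX8 and SOX6 were low. The whole set summed to 274.9, 255.0 and 266.8 TPM in replicates 1, 2 and 3, so the sum varied little while single genes varied up to 3.01-fold.

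**Figure D1:**
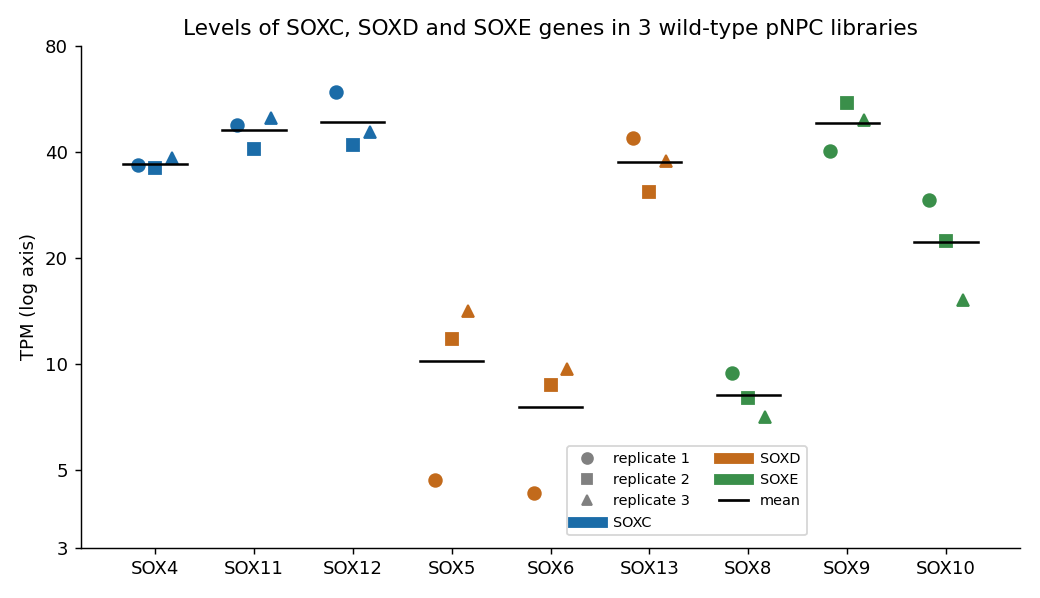
TPM on a log axis for each of the 9 genes, with a symbol for each replicate, a color for each subgroup and a bar at the mean. The 3 points of SOX4 lie within 35.9 to 38.5 TPM, while SOX5 spans 4.68 to 14.1 TPM.

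The 3 SOXC genes lay between 35.9 and 59.1 TPM in every library. SOX4 (ENSG00000124766.7, chromosome 6, 21593751 to 21598619, plus strand, GRCh38), an activator of neuronal and survival genes, had 36.8, 35.9 and 38.5 TPM in replicates 1, 2 and 3, from 4344, 4308 and 3592 expected counts. Its coefficient of variation was 3.57%, against a median of 13.7% among detected protein-coding genes, of which 6.72% varied less. SOX4 was thus the steadiest of the 9 genes across these libraries.

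SOX11 (ENSG00000176887.7, chromosome 2, 5692384 to 5701385, plus strand), which acts with SOX4 in newborn neurons, had 47.7, 40.7 and 49.8 TPM. It took the most reads of the 9 genes, 10643, 9259 and 8814 expected counts, over a transcript of 9002 bases. SOX12 (ENSG00000177732.9, chromosome 20, 325552 to 330224, plus strand), a weaker activator in mouse, had 59.1, 41.8 and 45.4 TPM from 6685, 4797 and 4057 counts. SOX12 was highest in replicate 1, and replicates 2 and 3 lay close to each other.

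Within a library the TPM of SOX11 was 1.3, 1.13 and 1.29 times that of SOX4, and the TPM of SOX12 was 1.61, 1.16 and 1.18 times that of SOX4. SOX12 and SOX11 changed places between libraries, with a ratio of 1.24, 1.03 and 0.912. Each SOXC gene has 1 annotated transcript in the files. The SOXC level therefore rests on 1 transcript model a gene and on no choice between isoforms.

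Promoters of SOX4 and SOX12 are shown because these genes had the smallest and the largest variation of their subgroup. The windows, from RefSeq on GRCh38.p14, run from 250 bases before to 50 after the annotated start, 5′ to 3′ on the plus strand, at chr6:21593501-21593800 for SOX4 and chr20:325302-325601 for SOX12. Capitals mark letter matches on either strand. The core that SOX proteins bind was searched as ACAAT, and a variant of that core as ACAAAG. The CCAAT box was searched by its name letters. The GC box was searched as GGGCGG. The TATA box was searched as TATAAA. The SOX core and the CCAAT box end alike, but no matches overlapped in the windows printed.
SOX4: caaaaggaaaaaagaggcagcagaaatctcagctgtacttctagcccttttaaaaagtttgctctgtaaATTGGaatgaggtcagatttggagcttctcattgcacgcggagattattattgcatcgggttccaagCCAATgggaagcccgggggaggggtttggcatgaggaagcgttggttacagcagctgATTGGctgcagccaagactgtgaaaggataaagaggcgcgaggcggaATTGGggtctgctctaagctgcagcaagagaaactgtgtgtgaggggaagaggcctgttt
SOX12: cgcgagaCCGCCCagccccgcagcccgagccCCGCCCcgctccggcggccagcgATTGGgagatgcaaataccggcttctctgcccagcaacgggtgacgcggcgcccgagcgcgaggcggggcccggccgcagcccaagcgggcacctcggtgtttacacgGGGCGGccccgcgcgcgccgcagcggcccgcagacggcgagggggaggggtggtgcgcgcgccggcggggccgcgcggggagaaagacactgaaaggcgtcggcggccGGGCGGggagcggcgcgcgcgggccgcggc

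The SOX4 window held 4 CCAAT boxes and no GC box, and the SOX12 window held 1 CCAAT box and 4 GC boxes. GC content was 49.3% for SOX4 and 80.3% for SOX12, against a median of 58.7% over 35116 promoter windows. Of those windows, 34.6% held a CCAAT box, 45.0% a GC box, 27.4% the SOX core, 16.1% its variant and 11.5% a TATA box. Neither SOXC window matched the SOX core, its variant or the TATA box.

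SOXD genes split into a high member and a pair of low ones. SOX13 (ENSG00000143842.15, chromosome 1, 204073115 to 204127743, plus strand), known in mouse for restraining WNT output through TCF factors, had 43.7, 30.7 and 37.7 TPM from 3704, 2506 and 2333 counts. SOX5 (ENSG00000134532.20, chromosome 12, 23529504 to 24562650, minus strand), which in mouse controls crest, cartilage and cortical neuron development, had 4.68, 11.7 and 14.1 TPM. SOX6 (ENSG00000110693.19, chromosome 11, 15966449 to 16738477, minus strand), the close relative with which SOX5 pairs in cartilage, had 4.29, 8.67 and 9.67 TPM. SOX5 and SOX6 were both lowest in replicate 1, as were 57.3% of detected protein-coding genes. SOX13 was highest there, as were 25.0% of those genes.

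The gap in SOX5 was wider than counting error. It had 591 expected counts in replicate 1, with an exact Poisson 95% interval from 544.3 to 640.6. Replicate 2 gave 1436 counts (1363 to 1512), and 1175 counts (1109 to 1244) came from replicate 3. In CPM, where counts are scaled for library depth and not for length, SOX5 stood at 17.1, 37.4 and 39.1 and SOX6 at 23.4, 35.2 and 37.5. These intervals cover counting error only. The ratio of SOX13 to SOX5 in TPM was 9.34 in replicate 1, 2.61 in replicate 2 and 2.68 in replicate 3. The ratio of SOX5 to SOX6 moved far less, with 1.09, 1.35 and 1.46.

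SOX5 and SOX6 were both lowest in replicate 1, so the windows at their outermost RefSeq starts are shown in the same way, both on the minus strand, at chr12:24562442-24562741 for SOX5 and chr11:16738428-16738727 for SOX6.
SOX5: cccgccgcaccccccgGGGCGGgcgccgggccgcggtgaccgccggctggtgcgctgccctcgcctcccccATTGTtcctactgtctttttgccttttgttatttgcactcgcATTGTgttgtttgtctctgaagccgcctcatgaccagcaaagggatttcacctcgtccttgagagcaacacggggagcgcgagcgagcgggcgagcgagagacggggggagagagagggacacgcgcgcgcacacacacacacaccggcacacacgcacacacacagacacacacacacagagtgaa
SOX6: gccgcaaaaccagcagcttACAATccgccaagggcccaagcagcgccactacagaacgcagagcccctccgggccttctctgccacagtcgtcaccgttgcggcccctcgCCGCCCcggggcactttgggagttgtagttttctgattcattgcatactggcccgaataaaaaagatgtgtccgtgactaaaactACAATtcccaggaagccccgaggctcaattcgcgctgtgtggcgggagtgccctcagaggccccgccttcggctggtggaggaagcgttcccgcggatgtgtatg

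Each of these windows held 2 matches to the SOX core and 1 GC box, and neither held a CCAAT box, the core variant or a TATA box. GC content was 63.7% for SOX5 and 60.0% for SOX6. Windows at the other RefSeq starts of SOX6, not shown, had 29.7% to 41.7% GC, and each held a CCAAT box or a TATA box. The window of SOX13 held 1 GC box and none of the other motifs. Letter matches describe the sequence and are no evidence of binding.

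The estimated transcript length of SOXD genes also varied between libraries. The files give each gene a transcript length weighted by isoform abundance, with 23 annotated transcripts for SOX5, 19 for SOX6 and 10 for SOX13. For SOX6 this length was 7656, 6244 and 6016 bases in replicates 1, 2 and 3, a range of 24.7% of its mean. For SOX5 it was 5194, 4959 and 4382 bases, a range of 16.7%, and for SOX13 it was 3555, 3393 and 3318 bases, a range of 6.93%.

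Weighted length was thus greatest in replicate 1 for all 3 SOXD genes, as it was for 41.7% of 12553 detected genes with several transcripts and a length that differed. The median range of those genes was 7.01%, and 90.1% of them had a smaller range than SOX6 and 80.2% a smaller one than SOX5. For SOX13 this share was 49.5%, so its range was ordinary. Of the SOXE genes, SOX10 had a range of 7.35% and was longest in replicate 2. SOX8 had a range of 3.71% and was longest in replicate 3. Without replicate 1 the range of SOX6 was 3.73% of its mean and that of SOX13 2.23%, and without replicate 3 the range of SOX5 was 4.62%. Isoform lengths enter TPM directly. The log2 TPM of SOX6 in replicate 1 minus the mean of the others was -1.09, and the same difference in log2 CPM was -0.64, with 0.34 in log2 effective length. For SOX5 these were -1.46, -1.17 and 0.18.

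**Figure D2:**
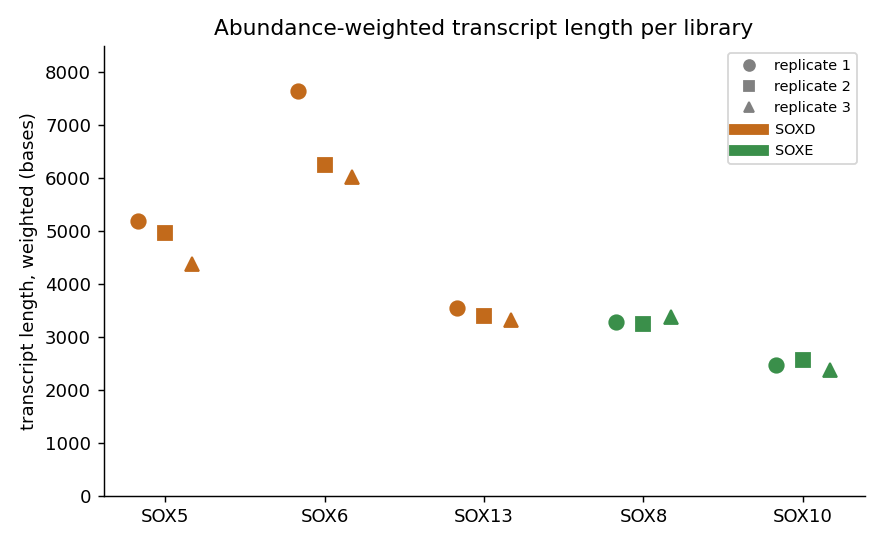
Abundance-weighted transcript length in bases, with a symbol for each replicate, for the 5 genes that have several annotated transcripts. SOX6 stands at 7656 bases in replicate 1, above 6244 and 6016 bases in replicates 2 and 3.

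SOXE genes were ordered alike in all 3 libraries, with SOX9 above SOX10 and SOX10 above SOX8. SOX9 (ENSG00000125398.8, chromosome 17, 72121020 to 72126416, plus strand), a factor of early crest, radial glia and cartilage, had 40.2, 55.1 and 49.4 TPM from 3787, 5268 and 3672 counts. SOX10 (ENSG00000100146.20, chromosome 22, 37972312 to 37984555, minus strand), a factor of crest, its glia and pigment cells, had 29.1, 22.4 and 15.2 TPM from 1667, 1343 and 650 counts. SOX9 was lowest in replicate 1, where SOX10 was highest.

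SOX8 (ENSG00000005513.10, chromosome 16, 981770 to 986979, plus strand), which overlaps in function with its relatives in mouse crest and glia, had 9.38, 8.0 and 7.06 TPM. These came from 729, 623 and 445 counts, and the exact Poisson 95% interval of the 445 counts in replicate 3 ran from 404.6 to 488.3. The ratio of SOX9 to SOX10 was 1.38, 2.46 and 3.26 in replicates 1, 2 and 3, and that of SOX10 to SOX8 was 3.11, 2.80 and 2.15. The balance of SOX9 and SOX10 thus varied more between libraries than the order of the genes.

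In the order of mean log2(TPM + 1), from SOX12 down through SOX9, SOX11, SOX4, SOX13, SOX10, SOX5 and SOX8 to SOX6, only 2 of 8 neighbouring pairs differed beyond their spread. For these pairs each library gave the same sign and the mean difference was above its SD. SOX11 exceeded SOX4 by 0.30 ± 0.11 log2(TPM + 1), and SOX13 exceeded SOX10 by 0.76 ± 0.44 (SD, n = 3). SOX10 and SOX5 differed by 1.13 ± 1.18, with 2.41, 0.88 and 0.10 in replicates 1, 2 and 3, so replicate 3 brought them together. No test was made of these differences, since with 3 libraries an exact sign-flip permutation, two-sided, gives no p lower than 0.25. Without replicate 2 the pairs beyond their spread numbered 1, and without replicate 1 or replicate 3 they numbered 4.

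By subgroup, SOXC genes held 49.6 ± 2.94% of the summed TPM of the 9 genes, SOXE genes 29.7 ± 3.46% and SOXD genes 20.7 ± 2.03% (SD, n = 3). This order was the same in each library, where SOXC took 52.2%, 46.4% and 50.1%. SOXC summed to 131.9 ± 12.7 TPM, SOXE to 78.6 ± 6.94 TPM and SOXD to 55.1 ± 5.57 TPM. Without length scaling, in CPM, the shares were 63.0% for SOXC, 20.2% for SOXE and 16.8% for SOXD.

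The SOXB1 genes SOX1, SOX2 and SOX3, which hold neural progenitors in their state, summed to 191.8, 85.7 and 110.6 TPM and were highest in replicate 1. The 9 genes held 57.1%, 73.8% and 68.7% of the TPM of 19 SOX genes. Of the other SOX genes, SOX21 had 12.3, 1.84 and 8.14 TPM and SOX15 had 1.92, 2.10 and 2.19 TPM, while SOX7, SOX18 and SOX30 were below detection. No library had a count of SOX14 or SOX17, and their floors, the TPM that 3 counts would have had in the library where it is highest, were 0.0842 and 0.0710.

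**Figure D3:**
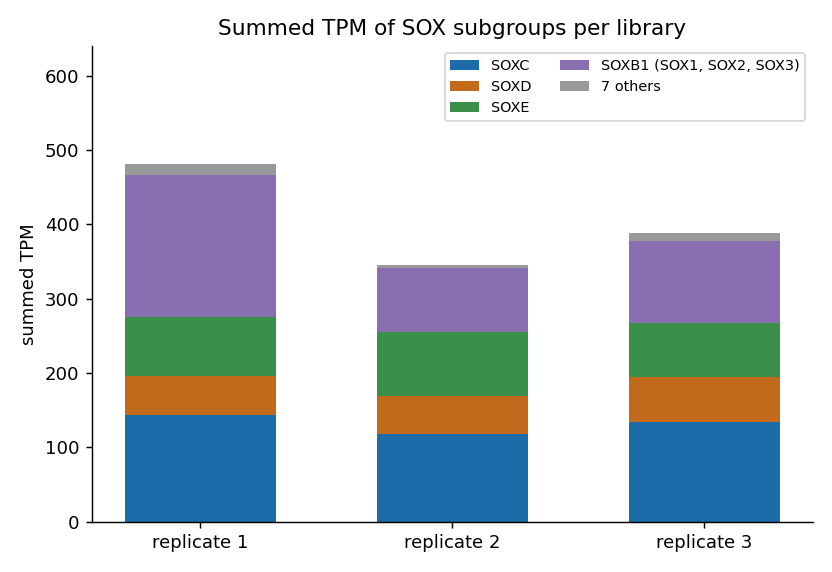
Summed TPM per library, stacked by SOX subgroup, with SOXC, SOXD and SOXE at the base. The sum of the 9 genes lies between 255.0 and 274.9 TPM, while SOXB1 lies between 85.7 and 191.8 TPM.

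Spread between libraries was tested for every gene in edgeR, as excess over the spread of genes of like level, on rounded expected counts. All 9 genes passed the filter on low counts. After Benjamini-Hochberg adjustment over 17046 genes, 0 of the 9 SOX genes passed 0.05, against 1.59% of all genes tested. At an unadjusted p under 0.05 there were 2 of the 9, against 7.35% of all genes. They were SOX5, with an adjusted p of 0.185 in edgeR, and SOX10, with an adjusted p of 0.265 in edgeR. Missing the threshold does not show that a gene was steady.

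On the log2 CPM scale SOX5 lay at -1.15 in replicate 1 relative to the mean of the others, and SOX10 lay at -0.95 in replicate 3. SOX6 followed at -0.62 in replicate 1. SOX13, SOX12 and SOX10 lay at 0.60, 0.59 and 0.82 in replicate 1. In that library 27.7% of all genes tested lay more than 0.5 from the others in either direction and 6.99% more than 1, so shifts of 0.6 were not rare there. After correction of each library for a smooth trend of counts with length, the adjusted edgeR p was 0.0505 for SOX11 and 0.0704 for SOX10. In the same edgeR setting the adjusted p was 0.0905 for SOX12, 0.291 for SOX13 and 0.351 for SOX5.

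**Figure D4:**
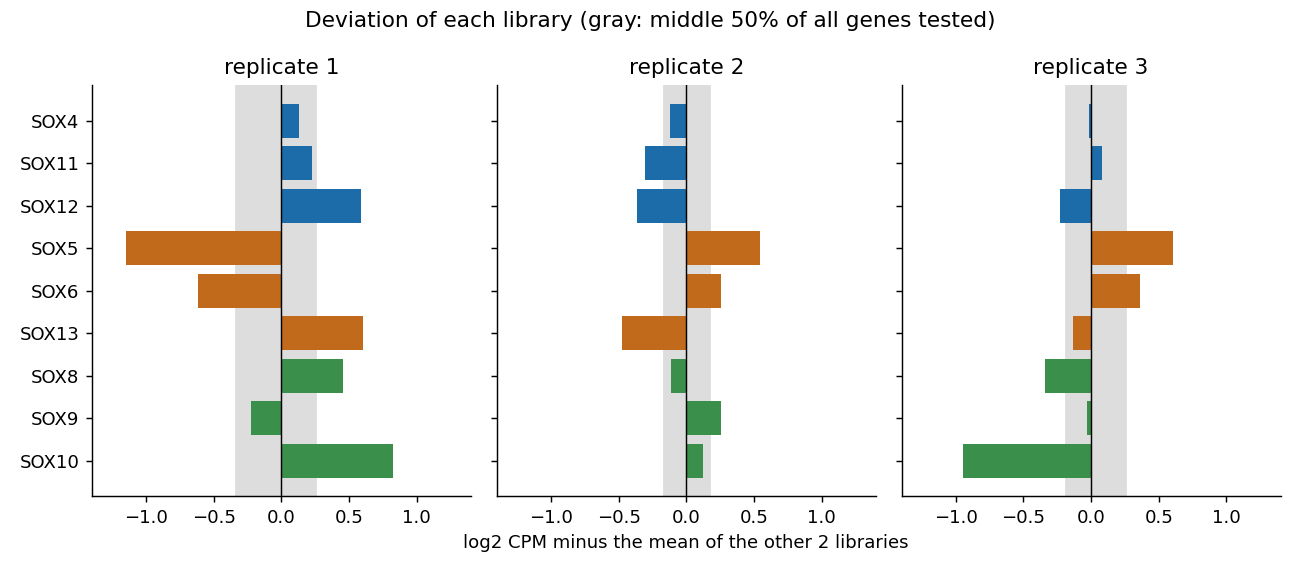
Log2 CPM of each library minus the mean of the other 2, a panel for each replicate, with the middle 50% of all genes tested in gray. SOX5 reaches -1.15 in replicate 1 and SOX10 reaches -0.95 in replicate 3, while SOX4 stays within 0.13 of 0 in each library.

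The genes that surround these SOX factors in crest, glia and neurons are given from lists, beside the 62.2% of protein-coding genes that were detected. Of the neural crest list 12 of 12 genes were detected, led by TWIST1 at 189 ± 48.6, MSX1 at 144 ± 64.0 and TFAP2B at 58.9 ± 7.14 TPM (SD, n = 3), all crest transcription factors. The lowest were the early crest factor FOXD3 at 6.06 ± 1.43 TPM and the endothelin receptor EDNRB at 4.33 ± 0.36 TPM. Crest genes were highest in replicate 2 in 7 of 12 cases, against 34.0% of detected protein-coding genes. SOX9 was also highest there, while SOX10 and SOX8 were highest in replicate 1 and lowest in replicate 3.

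Genes of crest descendants, namely pigment cells, Schwann cells and autonomic neurons, were detected in 6 of 12 cases. SOX10 is known to act in all of these lineages. PMEL, a pigment granule gene, had 44.6, 28.9 and 17.6 TPM and was highest in replicate 1. PHOX2A, an autonomic neuron factor, had 29.6, 8.09 and 18.9 TPM. The Schwann cell precursor gene CDH19 at 0.76 ± 0.12 TPM and the pigment enzyme TYR at 1.71, 0.30 and 0.11 TPM were not detected.

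In the cartilage list, whose genes SOX9 activates with SOX5 and SOX6 in mouse, 10 of 12 genes were detected. COL2A1, the main cartilage collagen, had 277, 431 and 393 TPM, COL11A1 had 29.9, 66.6 and 49.0 TPM, and COL9A1 had 12.9, 24.4 and 27.7 TPM. The cartilage matrix genes COMP at 0.013 ± 0.012 TPM and MATN1 at 0.42 ± 0.08 TPM were not detected. Of the 10 detected, 8 were highest in replicate 2, against 34.0% of detected protein-coding genes. So were 8 of 9 mesenchyme genes, all 9 of which were detected. Mesenchyme genes summed to 567.9, 1214 and 844.0 TPM, with COL1A2, PRRX1 and LUM the highest and COL1A1 and POSTN the lowest. SOX9 was lowest in replicate 1, as were the sum of either list and 57.3% of detected protein-coding genes. The part of mesenchymal cells in the SOX9, SOX5 and SOX6 levels was not tested.

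Of 12 oligodendrocyte lineage genes 5 were detected. They included CNP at 83.2 ± 6.38 TPM and the receptor PDGFRA at 4.92, 18.1 and 19.0 TPM. PDGFRA was lowest in replicate 1, as SOX5, SOX6 and 57.3% of detected protein-coding genes were. NKX2-2 had 0 counts (floor 0.0795 TPM) and the myelin gene MOG was at 0.053 ± 0.068 TPM. OLIG2, the defining lineage factor, named after its values were seen, was at 0.060 ± 0.036 TPM. Of 12 astrocyte and radial glia genes 6 were detected, led by GJA1 at 177.7 ± 50.7, FABP7 at 102.5 ± 31.4 and SLC1A3 at 35.3 ± 2.11 TPM. The water channel AQP4 was at 0.087 ± 0.021 TPM while no count of HOPX was seen (floor 0.138 TPM). SOX9 and SOX10 were thus measured in cells where OLIG2, NKX2-2, MOG and AQP4 were at or near 0.

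Neuron genes, some of them SOXC targets in mouse and chick, were detected in 8 of 12 cases. The tubulin gene TUBB3 had 478, 324 and 323 TPM, the intermediate filament gene INA 51.1, 26.9 and 28.9 TPM, and MAP2 31.3, 40.9 and 47.7 TPM. The proneural factors NEUROD1 at 0.090 ± 0.035 TPM and NEUROG2 at 0.057 ± 0.081 TPM were not detected. Of the 8 detected genes 5, with TUBB3 and INA, were highest in replicate 1, against 25.0% of detected protein-coding genes. SOX12 was also highest there, and so were SOX13, SOX8 and SOX10. The other 3 neuron genes, with MAP2, were highest in replicate 3. Detected protein-coding genes were highest there unless among the 25.0% of replicate 1 or the 34.0% of replicate 2. SOX11, SOX4, SOX5 and SOX6 were highest in replicate 3 too, and SOX4 varied by only 1.07-fold over the libraries.

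**Figure D5:**
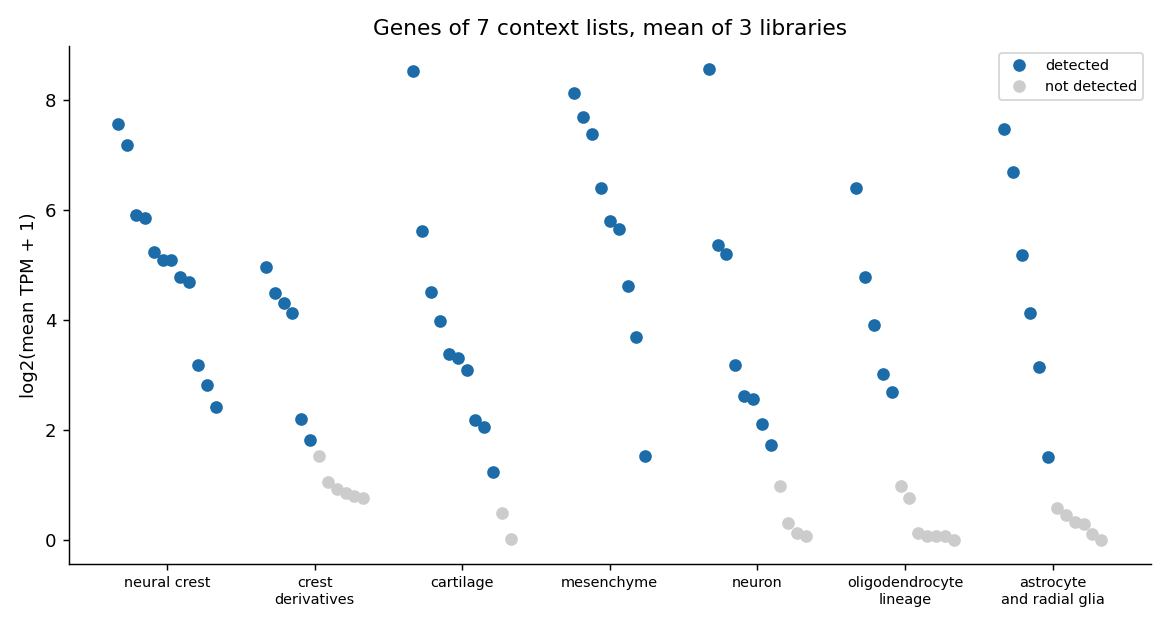
Each point is a gene of a context list, placed by log2(mean TPM + 1) over 3 libraries and colored by detection. All 12 crest and all 9 mesenchyme genes were detected, against 5 of 12 in the oligodendrocyte lineage.

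Among 125 genes of the lists, the nearest in level over the 3 libraries to SOX12, the highest SOXC gene, were SOX3 and DNMT3B, with a root mean square difference of 0.33 and 0.35 log2(TPM + 1). NGFR at 0.19 and SLC1A3 at 0.27 lay nearest to SOX13, the highest SOXD gene. THY1 at 0.18 and DCN at 0.22 lay nearest to SOX9, the highest SOXE gene. Nearness here measures level as much as pattern, since 3 libraries say little about pattern.

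All 27 expected counts of the 9 genes were whole numbers to the 2 decimals deposited. Over all genes, those without a read included, 86.8%, 87.5% and 87.8% were whole in replicates 1, 2 and 3. Some of the genes overlap annotated neighbours. In GENCODE release 29 the gene C11orf58 on the opposite strand shares 219 exon bases with SOX6 and stood at 271, 329 and 280 TPM, far above SOX6. POLR2F shares 89 exon bases with SOX10 on the opposite strand and stood at 186, 187 and 171 TPM. The counts of C11orf58 and POLR2F were also whole numbers in all 3 libraries. The sources used here do not give strand use in library making or counting, and the assignment of reads in these stretches was not tested. SOX9-AS1, which shares no exon base with SOX9, had 0.93, 2.37 and 2.92 TPM.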

How the data were processed

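Polyadenylated RNA of 3 wild-type pNPC replicates was sequenced, and per the labels' protocols RNA came from RNeasy columns and libraries from a NEBNext Ultra II DNA kit. The genome build was GRCh38, and RSEM 1.3.1, STAR 2.7.11a and Trim Galore 0.6.10 are listed, per the submitters' processing notes, without roles. The sources used here name no annotation release. Each library came as 1 RSEM gene table, per the file headers. Its expected counts, as deposited, are estimated reads of a gene before any normalization. TPM, as deposited by the authors, is scaled by effective length to a common sum, and the authors' FPKM, scaled by length and reads, served only as an alternative. Reads that match several genes are split by RSEM.

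The 9 genes were found by symbol. The members and lists were chosen with earlier results of these data known. Totals were 34658454, 38400092 and 30038114 expected counts. Levels are TPM with SD over 3 libraries, and differences of genes are on log2(TPM + 1), a pseudocount of 1, which understates differences of low genes. Excess spread was tested in edgeR 4.0.16 (R 4.3.3) on rounded expected counts after TMM and filterByExpr. The residual deviance of an intercept-only fit at the trended dispersion was referred to a chi-square distribution (2 degrees of freedom), with Benjamini-Hochberg adjustment at 0.05. Such p-values speak of the spread among these libraries alone, which may be technical. The test was checked on simulated data, where it found most large shifts of 1 library and missed most small ones. CPM levels are scaled by the total of expected counts and CPM deviations also by TMM.

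Besides the members, the naming rule gives the other SOX genes, the 3 highest and 2 lowest genes of each list, the 2 genes nearest in level to the highest member of each subgroup, and genes whose span overlaps a member. Some genes that this rule names are not reported here. Coordinates of genes are 1-based from the RefSeq table of GRCh38.p14. Gene types came from GENCODE release 29, matched for 58261 of 62754 identifiers. Motifs were chosen after the windows had been seen. Python 3.11.15 was used.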

Additional observations from a re-analysis of the deposited data

How the results depend on the processing

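No paired analysis was possible because the samples form 1 group. Detection of all 9 genes was the same at a TPM minimum of 0.5, at an FPKM minimum of 1 and without any 1 replicate. At a TPM minimum of 5 it fell to 7, since SOX5 and SOX6 had less in replicate 1, which left 1 of 3 SOXD genes. In CPM without length scaling the shares became 63.0% for SOXC, 16.8% for SOXD and 20.2% for SOXE. Without 1 replicate they ranged over 48.3% to 51.2%, 19.6% to 21.5% and 27.7% to 31.1%. Neighbouring pairs beyond their spread numbered 2 with a pseudocount of 0.1, 3 in CPM, and 1 to 4 without 1 replicate, where fewer samples enter. In edgeR 0 of the 9 genes passed excess spread with size factors of the DESeq2 type, without a filter, with a common dispersion, with the length trend removed or without any 1 replicate. With the length trend removed 5 of the 9 had an unadjusted p under 0.05. Over all genes 271 passed, 270 to 332 with the other settings on 3 libraries, and 95 to 117 without 1 replicate, where fewer samples enter. Without replicate 1 the adjusted edgeR p of SOX5 was 1, and without replicate 3 that of SOX10 was 1. The adjusted p of SOX5 ranged over 0.185 to 1 and that of SOX10 over 0.0704 to 1.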

Other observations

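The remaining lists covered endothelium, microglia and macrophages, pluripotency and neural progenitors. Of 8 endothelial genes 3 were detected, with means of 20.9 ± 1.39 TPM for EGFL7, 5.36 ± 2.65 TPM for ERG and 1.5 ± 0.43 TPM for VWF (SD, n = 3), while the defining endothelial adhesion genes CDH5 and PECAM1 stood at 0.13 ± 0.02 and 0.057 ± 0.090 TPM. Of 8 microglia and macrophage genes 1 was detected, TMEM119 at 15.7 ± 2.76 TPM, and AIF1 at 1.20 ± 0.59, P2RY12 at 0.38 ± 0.14, CX3CR1 at 0.023 ± 0.021 and ITGAM at 0.017 ± 0.015 TPM were not detected. Of 8 pluripotency genes 2 were detected, DNMT3B at 59.7 ± 3.39 and DPPA4 at 22.0 ± 3.97 TPM. POU5F1 stood at 0.11 ± 0.03 TPM, and PRDM14 and TDGF1 had 0 counts in all libraries (floors 0.136 and 0.211 TPM). Of 12 neural progenitor genes 10 were detected, led by VIM, HMGA2 and LIN28A. PAX6, at 0.13, 0.81 and 0.38 TPM in replicates 1, 2 and 3, was not detected. HES5, at 6.76, 0.72 and 5.66 TPM, missed the detection minimum in replicate 2 only.

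The pigment genes of the list did not share 1 order of libraries. DCT, at 6.31, 2.76 and 1.66 TPM in replicates 1, 2 and 3, was highest in replicate 1, as were PMEL and TYR. TYRP1, at 0.91, 1.63 and 0.17 TPM, and MITF, at 2.47, 2.67 and 2.43 TPM, were highest in replicate 2. DCT, TYRP1 and MITF were named after their values were seen.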
